A study of Mus musculus with 6 samples.

Results

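The 30 genes described here carry carbon from fructose and citrate into fatty acids, lengthen and desaturate those fatty acids, and build them into triglyceride. They were chosen by name from a list of enzymes and regulators of these steps, with earlier results of these data known. Of the 30 names, 29 matched a gene name in the table of 43346 genes, and Tkfc, listed there under its older symbol Dak, was matched by its Ensembl identifier. RNA was sequenced from the livers of mice on the FFC diet, a dietary model of metabolic dysfunction-associated steatohepatitis, after an adeno-associated virus 8 delivered a short hairpin RNA (shRNA). In 3 libraries (2, 3 and 2600) the hairpin was against S100a11, a calcium-binding S100 protein, and in 3 libraries (28, 30 and 31) it was a scrambled sequence. All 6 libraries share the diet and the viral vector, no untreated liver or other diet was compared here, and the labels used here give no strain, sex, age, dose or duration. Nothing in the labels states that the libraries are separate animals, so p-values measure only the spread between libraries.

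Fatty acid synthesis in the liver starts from citrate that leaves the mitochondrion and is split to acetyl-CoA, which is carboxylated to malonyl-CoA and polymerised to palmitate with NADPH as the reductant. Elongases and desaturases then turn palmitate into longer and unsaturated acids, and acyltransferases place these on glycerol to make triglyceride. Insulin, acting through SREBP-1c, and sugar, acting through ChREBP, are known to induce many of these enzymes, and fructose feeds the pathway because its first hepatic steps bypass the main control point of glycolysis.

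Each library held 53517387 to 78091845 counts over genes. The targeted gene S100a11 stood at 16.0, 3.55 and 3.41 CPM (counts relative to the library total, scaled by edgeR's TMM factors) in libraries 2, 3 and 2600, and at 15.9, 22.9 and 30.0 CPM in scrambled libraries 28, 30 and 31 (log2 change -1.57 ± 0.56 SE, edgeR adjusted p = 0.095). The library labelled S100a11 shRNA 2 was thus level with the lowest scrambled library, and every direction below is that of the labelled groups. Liver identity was as labelled: all 10 hepatocyte markers were measured, with Alb at 18116 to 31083 CPM in every library. The non-coding gene Gm26917 took 3.99% to 10.8% of counts in the S100a11 shRNA libraries and 3.16% to 4.42% in the scrambled ones, and the choice of scaling shifted every gene: over all genes the median log2 change came to 0.04 under TMM, and to -0.32 when libraries were scaled by their totals only.

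Of the 30 members, all of which were tested, 6 rose and 1 fell (edgeR quasi-likelihood test, Benjamini-Hochberg adjusted over 19352 genes, threshold 0.05). The rises were the triglyceride enzymes Agpat2, Lpin2 and Dgat2, the acetyl-CoA carboxylase Acacb, the lipogenic cofactor Thrsp and the elongase Elovl3. The fall was that of G6pdx, the first enzyme of the pentose phosphate pathway. The genes most often taken as the core of lipogenesis, Fasn, Acaca, Acly, Scd1 and Srebf1, did not pass the test in either direction. The 6 rises are 20% of members, where 5.82% of all tested genes rose, and the 1 fall is 3.33%, where 8.28% fell. In 10 members (33.3%) the libraries of the groups did not overlap, against 34.7% of all tested genes, so the total is near the background. By direction under TMM, 9 of 30 members were higher against 16.5% of all tested genes. Lower were 1 of 30 members against 18.1%. The median log2 change of the members was 0.18 under TMM. Relative to the median of all genes it was 0.14 under TMM and 0.15 under scaling by totals only, a subtraction that removes the shift between scalings.

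**Figure D1:**
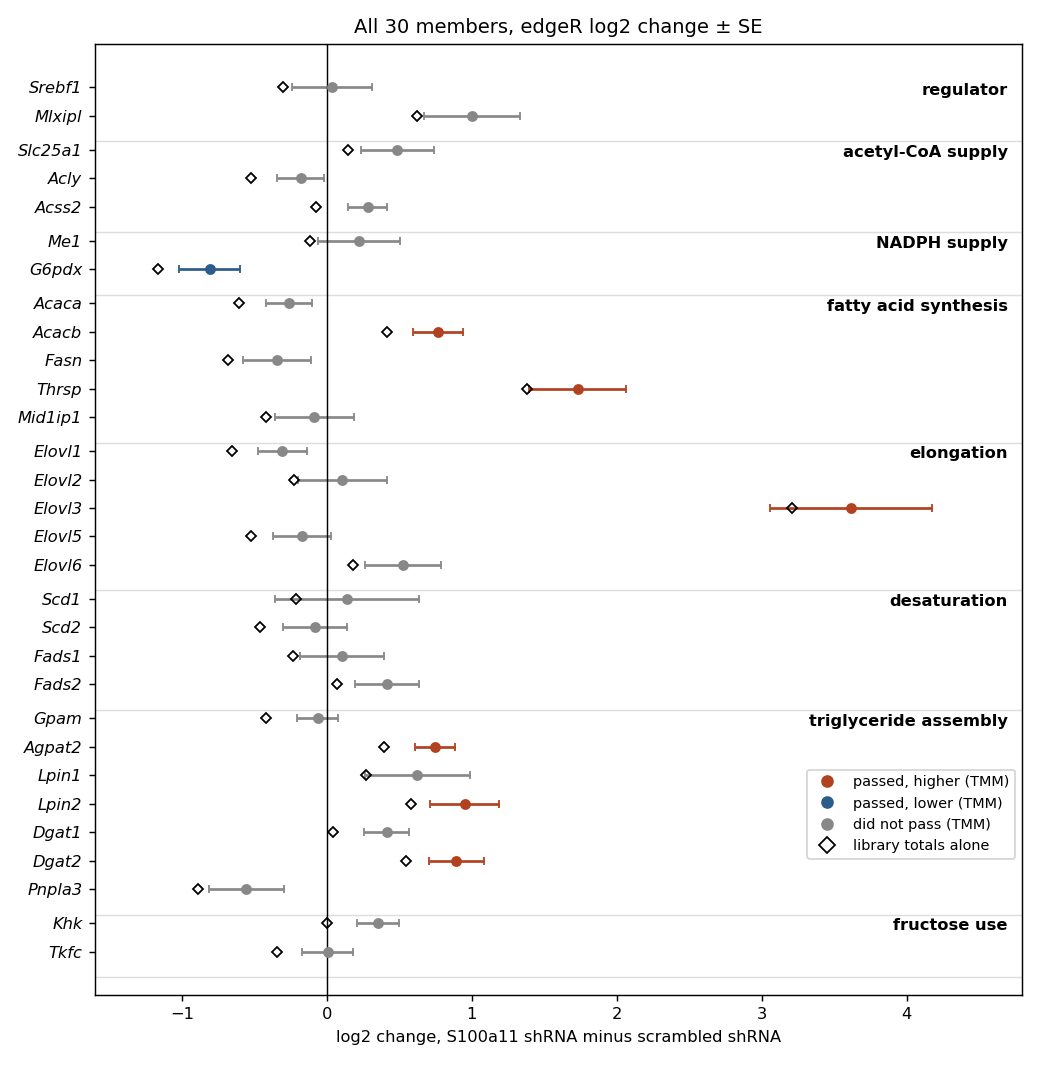
The log2 change between groups (x axis, S100a11 shRNA minus scrambled shRNA, n = 3 libraries each) of each of the 30 members (y axis, grouped by role), as circles with the standard error under TMM and as open diamonds with library totals alone. The diamonds lie to the left of every circle, and Elovl3 and Thrsp, at 3.62 and 1.73, lie farthest from 0.

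The scaling sets how many members pass. With library totals alone 2 members rose (Elovl3 and Thrsp, against 2.05% of all genes) and 4 fell (G6pdx, Acaca, Elovl1 and Pnpla3, against 20.5%). Acacb, Agpat2, Lpin2 and Dgat2 kept a positive change of 0.40 to 0.58 under that scaling, at adjusted p of 0.082 to 0.13. Relative to the median of all genes, the 6 rises were 0.71 to 3.58 with TMM and 0.71 to 3.53 with library totals alone. Subtracting that median removes the shift that a scaling gives every gene, so the 2 ranges had to lie close. They do not test the scaling. Among members that did not pass, Srebf1, Acss2, Me1, Elovl2, Scd1, Fads1, Khk and Tkfc have a positive log2 change with TMM and a negative one with library totals alone. Markers of hepatocytes moved with the rises under TMM: 4 of 10 passed as higher and 0 as lower, with a median log2 change of 0.56. Of all tested genes 5.82% passed as higher and 8.28% as lower under TMM. Their summed level was 45462 to 60990 CPM against 34851 to 44255 CPM in scrambled libraries. Alb and Apob, the largest by mean level, overlapped between groups and did not pass (edgeR adjusted p = 0.73 and 0.52). Marker values with library totals alone, a scaling that moved the median of all genes from 0.04 to -0.32, are not given here. The part of hepatocytes in the rises of members was not tested. In RNA of whole tissue, more cells of a type and more RNA per cell cannot be told apart.

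By number, triglyceride assembly held the most rises of any step: 3 of 7 members rose (42.9%) and 0 fell. The median log2 change was 0.62. Of all genes 5.82% rose and 8.28% fell, and fatty acid synthesis was close by share, with 2 of 5 members higher (40%). With library totals alone Agpat2, Lpin2 and Dgat2 did not pass (edgeR adjusted p = 0.097, 0.10 and 0.082). Agpat2 (chromosome 2, 26593057 to 26604417, minus strand, mm10) encodes the acyltransferase that makes phosphatidic acid. It stood at 142, 137 and 114 CPM in libraries 2, 3 and 2600 and at 82.0, 73.5 and 78.6 CPM in scrambled libraries 28, 30 and 31. Every S100a11 shRNA library lay above every scrambled one, a 1.68-fold difference (131 ± 15.1 against 78 ± 4.28 CPM, SD, n = 3 each; log2 change 0.75 ± 0.14 SE, edgeR adjusted p = 0.011, or 0.064 without scrambled library 30). Agpat2 overlaps Egfl7 on the opposite strand over 64 exonic bases in GENCODE M21, and Egfl7 held 83.7% as many counts. The strand setting of the counting is not given in the sources used here, so shared reads cannot be told apart, and Egfl7 itself gave a log2 change of 0.33 ± 0.19 SE (adjusted p = 0.29).

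Lpin2 (chromosome 17, 71182560 to 71249817, plus strand) encodes a lipin, the phosphatidate phosphatase that yields diacylglycerol. Its levels were 1039, 1160 and 1180 CPM in libraries 2, 3 and 2600 and 391, 661 and 696 CPM in libraries 28, 30 and 31. The S100a11 shRNA libraries lay close together and above all scrambled ones, of which library 28 was the lowest (1126 ± 76.1 against 583 ± 167 CPM, 1.93-fold, log2 change 0.95 ± 0.24 SE, edgeR adjusted p = 0.031). The call held without library 2 (adjusted p = 0.019) and was lost without any one of the other 5 libraries (adjusted p of 0.057 to 0.087). Lpin1, the lipin that also acts as a nuclear coactivator, stood at 286, 337 and 145 CPM against 90.7, 208 and 200 CPM. Its groups overlapped, with library 2600 below scrambled libraries 30 and 31 and library 28 the lowest of all (log2 change 0.62 ± 0.36 SE, edgeR adjusted p = 0.29).

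Dgat2 (chromosome 7, 99153663 to 99182713, minus strand) encodes an enzyme of the last step, which turns diacylglycerol into triglyceride. It stood at 462, 352 and 320 CPM in libraries 2, 3 and 2600 and at 183, 187 and 240 CPM in the scrambled libraries. The groups did not overlap, and the S100a11 shRNA mean was 1.86-fold higher (378 ± 74.7 against 203 ± 31.7 CPM, log2 change 0.89 ± 0.19 SE, edgeR adjusted p = 0.018, or 0.068 and 0.085 without scrambled libraries 28 and 30). Dgat1, which catalyses the same step, stood at 19.4, 24.3 and 24.5 CPM against 17.7, 18.4 and 15.1 CPM. Its groups also stood apart, but the change was smaller (log2 change 0.41 ± 0.15 SE) and did not pass (edgeR adjusted p = 0.11). Without library 2 it did (adjusted p = 0.047), in a fit where 1806 of 19779 tested genes rose, against 1126 of 19352 with all libraries.

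Gpam, the mitochondrial acyltransferase that starts glycerolipid synthesis, had the smallest SD relative to its mean of all members in the scrambled group. It stood at 241, 266 and 210 CPM in libraries 2, 3 and 2600 and at 246, 249 and 254 CPM in libraries 28, 30 and 31 (log2 change -0.06 ± 0.14 SE, edgeR adjusted p = 0.80). Pnpla3, a lipid droplet lipase and acyltransferase whose human counterpart is a known locus of fatty liver risk, was the least abundant member per length. It stood at 5.08, 4.04 and 2.82 CPM against 6.82, 4.48 and 6.35 CPM. The groups overlapped, since library 2 exceeded scrambled library 30 (log2 change -0.56 ± 0.26 SE, edgeR adjusted p = 0.19, and 0.045 with library totals alone).

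**Figure D2:**
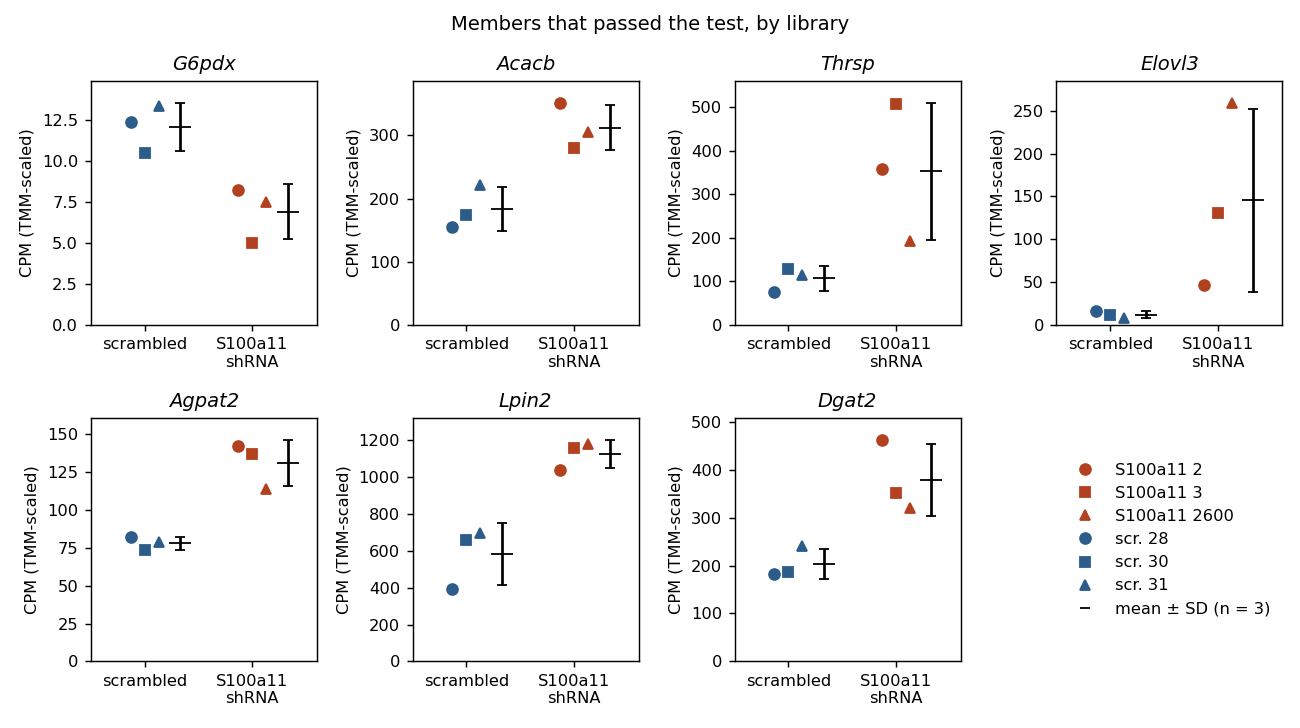
Level of each of the 7 members that passed the test (y axis, TMM-scaled CPM, from 0) in each of the 6 libraries, with the mean and SD of each group of 3. In all 7 panels the groups do not overlap, and for Elovl3 the S100a11 shRNA libraries run from 46.9 to 259 CPM.

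The members listed under fatty acid synthesis, which are not all enzymes, did not move as one. Of 5 members, Acacb and Thrsp rose, and Fasn, Acaca and Mid1ip1 did not pass. Acaca and Fasn both had a negative log2 change (-0.26 and -0.34). Acacb (chromosome 5, 114146535 to 114250761, plus strand) encodes the mitochondrial acetyl-CoA carboxylase, whose malonyl-CoA is known to restrain fatty acid entry into mitochondria. It stood at 351, 281 and 305 CPM in libraries 2, 3 and 2600 and at 155, 173 and 222 CPM in libraries 28, 30 and 31. All S100a11 shRNA libraries were above all scrambled ones (312 ± 35.8 against 183 ± 34.4 CPM, 1.70-fold, log2 change 0.77 ± 0.17 SE, edgeR adjusted p = 0.023). Without scrambled library 28 or 30 the adjusted p was 0.086 or 0.10.

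Acaca, the cytosolic carboxylase that supplies malonyl-CoA for synthesis, stood at 249, 202 and 177 CPM against 260, 237 and 256 CPM. Libraries 3 and 2600 lay below all scrambled libraries and library 2 among them (log2 change -0.26 ± 0.16 SE, edgeR adjusted p = 0.31). Without library 2 the gene passed as lower (adjusted p = 0.045). In that fit 2370 of 19779 tested genes fell, against 1602 of 19352 with all libraries. Within a library the ratio of Acaca to Acacb counts does not depend on scaling between libraries. It was 0.709, 0.721 and 0.580 in libraries 2, 3 and 2600 and 1.67, 1.37 and 1.15 in libraries 28, 30 and 31. The 2 groups did not overlap, and the ratio was 2.07-fold lower in the S100a11 shRNA libraries (exact two-sided permutation p = 0.1, the smallest that 3 against 3 libraries allow, Benjamini-Hochberg adjusted p = 0.24 over 12 ratios).

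Thrsp (chromosome 7, 97412938 to 97417730, minus strand) encodes Spot 14, a small protein induced by thyroid hormone and carbohydrate that promotes fatty acid synthesis. Its levels were 357, 507 and 194 CPM in libraries 2, 3 and 2600, against 75.4, 129 and 114 CPM in libraries 28, 30 and 31. Library 3 was the highest and library 2600 the lowest of its group, and still above every scrambled library (353 ± 157 against 106 ± 27.8 CPM, 3.32-fold, log2 change 1.73 ± 0.34 SE, edgeR adjusted p = 0.013). The rise passed in each of the 6 fits that left out 1 library. Mid1ip1, the paralogue of Spot 14 that assembles the carboxylase into filaments, stood at 30.6, 34.0 and 15.7 CPM against 34.4, 23.7 and 27.3 CPM. Libraries 2 and 3 lay among the scrambled ones and library 2600 below them (log2 change -0.09 ± 0.27 SE, edgeR adjusted p = 0.87).

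Adipose tissue also expresses Thrsp, so markers of adipocytes were measured. The defining markers Adipoq, Lep, Plin1 and Retn were too low to test, at or below 0.591 CPM in every library, with Lep at 0 in libraries 2, 2600 and 28. All 4 were highest in library 3, where Thrsp was highest too (Adipoq 0.320, Lep 0.591, Plin1 0.336 and Retn 0.112 CPM). In library 2600 Adipoq and Plin1, at 0.159 and 0.136 CPM, were also above every scrambled library, of which library 30 was the highest (0.145 and 0.0872 CPM). Library 2 did not share this order. There Thrsp stood at 357 CPM, while Adipoq and Plin1 were at 0.0155 and 0.0310 CPM and Lep and Retn at 0. All 4 markers were lower in library 2 than in scrambled library 30. Of the other 4 listed markers Cfd rose 9.37-fold and Car3 2.45-fold, and Cidec and Adrb3 did not pass. The summed level of all 8 was 1667 to 2520 CPM in the S100a11 shRNA libraries and 795 to 1112 CPM in the scrambled ones, most of it Car3, which hepatocytes make too. The part of adipocytes in the Thrsp rise was not tested.

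Fasn, the multifunctional synthase that makes palmitate, stood at 1309, 995 and 761 CPM in libraries 2, 3 and 2600 and at 1484, 1156 and 1245 CPM in libraries 28, 30 and 31. Library 2 lay among the scrambled libraries and libraries 3 and 2600 below them (1022 ± 275 against 1295 ± 169 CPM, log2 change -0.34 ± 0.23 SE, edgeR adjusted p = 0.37). The ratio of Fasn to Acaca counts differed little, at 5.26, 4.92 and 4.31 against 5.71, 4.88 and 4.86 (log2 difference -0.09, exact permutation p = 0.60).

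The stretch before the transcription start is shown for Lpin2, which rose, at 2 of its 3 listed starts, and for Fasn, which did not pass, because they carry the motifs searched and hold no exon of GENCODE M21. Each is the 250 bases before the RefSeq start in build GRCm38.p6, 5′ to 3′ on the gene's strand. Capitals mark an E-box (CACGTG) in the first window and CCAAT boxes (CCAAT on either strand, the motif bound by NF-Y) in the others. The windows are chr17:71183282-71183531 and chr17:71204404-71204653 on the plus strand for Lpin2, both within the gene as the table places it, and chr11:120824548-120824797 on the minus strand for Fasn.
Lpin2, first start: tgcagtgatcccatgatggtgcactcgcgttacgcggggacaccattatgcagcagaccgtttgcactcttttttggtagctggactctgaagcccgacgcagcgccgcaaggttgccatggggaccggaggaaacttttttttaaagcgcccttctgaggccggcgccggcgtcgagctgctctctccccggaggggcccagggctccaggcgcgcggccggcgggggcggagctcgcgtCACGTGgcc
Lpin2, inner start: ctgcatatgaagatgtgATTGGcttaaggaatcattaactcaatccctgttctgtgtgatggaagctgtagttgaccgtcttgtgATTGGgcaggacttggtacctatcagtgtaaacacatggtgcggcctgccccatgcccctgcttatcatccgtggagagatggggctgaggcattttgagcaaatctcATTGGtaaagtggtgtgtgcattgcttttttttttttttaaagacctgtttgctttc
Fasn: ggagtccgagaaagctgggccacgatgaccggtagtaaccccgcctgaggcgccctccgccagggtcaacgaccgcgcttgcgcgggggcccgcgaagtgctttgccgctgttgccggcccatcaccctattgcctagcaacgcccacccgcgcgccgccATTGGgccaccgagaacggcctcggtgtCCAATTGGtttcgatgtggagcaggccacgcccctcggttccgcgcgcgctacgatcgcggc
The first Lpin2 window holds 1 E-box, the inner one 3 CCAAT boxes and that of Fasn 3 CCAAT boxes, of which the last 2 overlap on opposite strands. Windows of this length were at hand for 24 of the 30 members (33 windows, since some genes have several starts). CCAAT was found in 45.5% of the members' windows and in 33.8% of 32851 mouse windows. The E-box CACGTG, a palindrome that ChREBP and USF can bind, was in 15.2% of the members' windows (those of Elovl5, Khk, Lpin2, Mlxipl and Slc25a1) and in 6.02% of all. The letters TCACNCCAC, a form of the sterol response element, were in 1 member window, upstream of Mlxipl, and in 1.05% of all. A match describes these letters only, and the members that rose and those that did not both held CCAAT.

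Of the 2 regulators neither passed the test. Srebf1, whose product SREBP-1c carries the insulin signal to lipogenic genes, stood at 564, 741 and 351 CPM in libraries 2, 3 and 2600 and at 676, 472 and 468 CPM in libraries 28, 30 and 31. The S100a11 shRNA libraries bracketed the scrambled ones (log2 change 0.03 ± 0.28 SE, edgeR adjusted p = 0.95). Mlxipl, which encodes the sugar-responsive factor ChREBP, stood at 858, 1967 and 2110 CPM against 950, 844 and 670 CPM. Libraries 3 and 2600 were above every scrambled library and library 2 among them (1645 ± 685 against 822 ± 141 CPM, log2 change 1.0 ± 0.33 SE, edgeR adjusted p = 0.078). Mlxipl passed in 2 of 9 other ways of processing, DESeq2 (adjusted p = 0.012) and no filter on low counts (0.048). It passed in 1 of 6 fits without a library, that without library 2 (0.0036). In the remaining fits without a library the edgeR adjusted p was 0.12 to 0.22, and with library totals alone it was 0.16. The ratio of Srebf1 to Mlxipl counts was 0.657, 0.377 and 0.166 in libraries 2, 3 and 2600 and 0.711, 0.559 and 0.698 in libraries 28, 30 and 31 (exact permutation p = 0.20).

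The genes that supply carbon did not pass. Slc25a1, the mitochondrial citrate carrier, stood at 134, 77.3 and 73.3 CPM against 64.2, 55.8 and 83.2 CPM, with library 2 the only one above every scrambled library (log2 change 0.49 ± 0.25 SE, edgeR adjusted p = 0.23). Acly, which splits citrate to acetyl-CoA, stood at 160, 133 and 113 CPM against 161, 134 and 165 CPM (log2 change -0.18 ± 0.16 SE, edgeR adjusted p = 0.51). Acss2, which makes acetyl-CoA from acetate, stood at 103, 92.6 and 95.1 CPM against 88.1, 70.5 and 80.5 CPM. Its groups did not overlap, but the difference did not pass (log2 change 0.28 ± 0.13 SE, edgeR adjusted p = 0.20). The within-library ratio of Acss2 to Acly counts was 0.642, 0.698 and 0.841 in libraries 2, 3 and 2600 and 0.547, 0.524 and 0.489 in libraries 28, 30 and 31, 1.39-fold higher without overlap (exact permutation p = 0.1, adjusted p = 0.24). Acss2 also overlaps Gss on the opposite strand, which held 71.1% as many counts.

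The enzymes that supply NADPH differed. G6pdx (chromosome X, 74409483 to 74429194, minus strand), the entry enzyme of the oxidative pentose phosphate pathway, stood at 8.21, 5.0 and 7.48 CPM in libraries 2, 3 and 2600 and at 12.4, 10.5 and 13.4 CPM in libraries 28, 30 and 31. Every S100a11 shRNA library was below every scrambled one (6.90 ± 1.68 against 12.1 ± 1.46 CPM, 1.75-fold lower, log2 change -0.81 ± 0.21 SE, edgeR adjusted p = 0.037). The call held without library 2 (adjusted p = 0.012) and was lost without any one of the other 5 libraries (0.064 to 0.12). G6pdx shares 418 exonic bases with Ikbkg on the opposite strand, which held 10.6 times as many counts and a log2 change of 0.41 ± 0.16 SE (adjusted p = 0.11). Me1, the cytosolic malic enzyme, stood at 209, 97.4 and 105 CPM against 128, 95.1 and 131 CPM, with library 2 above and the others among the scrambled libraries (log2 change 0.22 ± 0.28 SE, edgeR adjusted p = 0.66).

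Cell types other than hepatocytes express G6pdx, and their marker lists did not all move one way. The counts below stand against 5.82% of all tested genes that rose and 8.28% that fell. Of 7 macrophage markers 4 fell and 0 rose, with a summed level of 187 to 360 CPM in the S100a11 shRNA libraries and 357 to 532 CPM in the scrambled ones. All 6 cholangiocyte markers fell, from a sum of 246 to 362 CPM to one of 39.8 to 75.7 CPM, and 4 of 7 stellate cell markers fell. Of 6 lymphocyte markers 1 fell. Of 6 endothelial markers 1 rose (Clec4g) and 1 fell (Lyve1), with a median log2 change of 0.17. The adipocyte list gave 2 rises and 0 falls among the 4 of its 8 markers that were tested. Whether these account for part of the G6pdx difference was not tested.

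Among the elongases, which add carbon pairs to fatty acids, only Elovl3 passed. Elovl3 (chromosome 19, 46131897 to 46135307, plus strand) acts on saturated and monounsaturated long chains, and in mouse liver it is known to be higher in males and to vary over the day. It stood at 46.9, 131 and 259 CPM in libraries 2, 3 and 2600 and at 15.8, 11.7 and 8.05 CPM in libraries 28, 30 and 31. The groups did not overlap, with library 2 the nearest to the scrambled libraries (146 ± 107 against 11.9 ± 3.90 CPM, 12.3-fold, log2 change 3.62 ± 0.56 SE, edgeR adjusted p = 0.0067). The rise passed in each fit that left out 1 library, with a log2 change of 4.01 without library 2 and 2.87 without library 2600. Per kilobase of gene length, Elovl3 was the 26th of 30 members in the scrambled libraries, at 7.94 ± 2.61 CPM per kilobase, and stood at 97.4 ± 71.5 in the S100a11 shRNA libraries.

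Elovl6, which takes palmitate to stearate, stood at 172, 88.3 and 97.2 CPM against 74.3, 71.3 and 103 CPM (log2 change 0.52 ± 0.26 SE, edgeR adjusted p = 0.22). Elovl5, an elongase of polyunsaturated acids, stood at 1033, 722 and 834 CPM against 1047, 832 and 1042 CPM (log2 change -0.17 ± 0.20 SE, edgeR adjusted p = 0.61). Within a library the Elovl6 to Elovl5 ratio of counts was 0.167, 0.122 and 0.117 in libraries 2, 3 and 2600 and 0.0710, 0.0858 and 0.0992 in libraries 28, 30 and 31. That ratio was 1.58-fold higher without overlap (exact permutation p = 0.1, adjusted p = 0.24). Elovl2, which lengthens the longest polyunsaturated acids, stood at 583, 321 and 268 CPM against 328, 284 and 477 CPM, so that library 2 was above and library 2600 below every scrambled library (log2 change 0.11 ± 0.31 SE, edgeR adjusted p = 0.85). Elovl1, a broadly expressed elongase of very long saturated chains, stood at 35.4, 26.1 and 23.9 CPM against 33.8, 34.5 and 37.5 CPM (log2 change -0.31 ± 0.17 SE, edgeR adjusted p = 0.26). Without library 2, Elovl1 passed as lower (adjusted p = 0.019), in a fit where 2370 of 19779 tested genes fell, against 1602 of 19352 with all libraries.

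**Figure D3:**
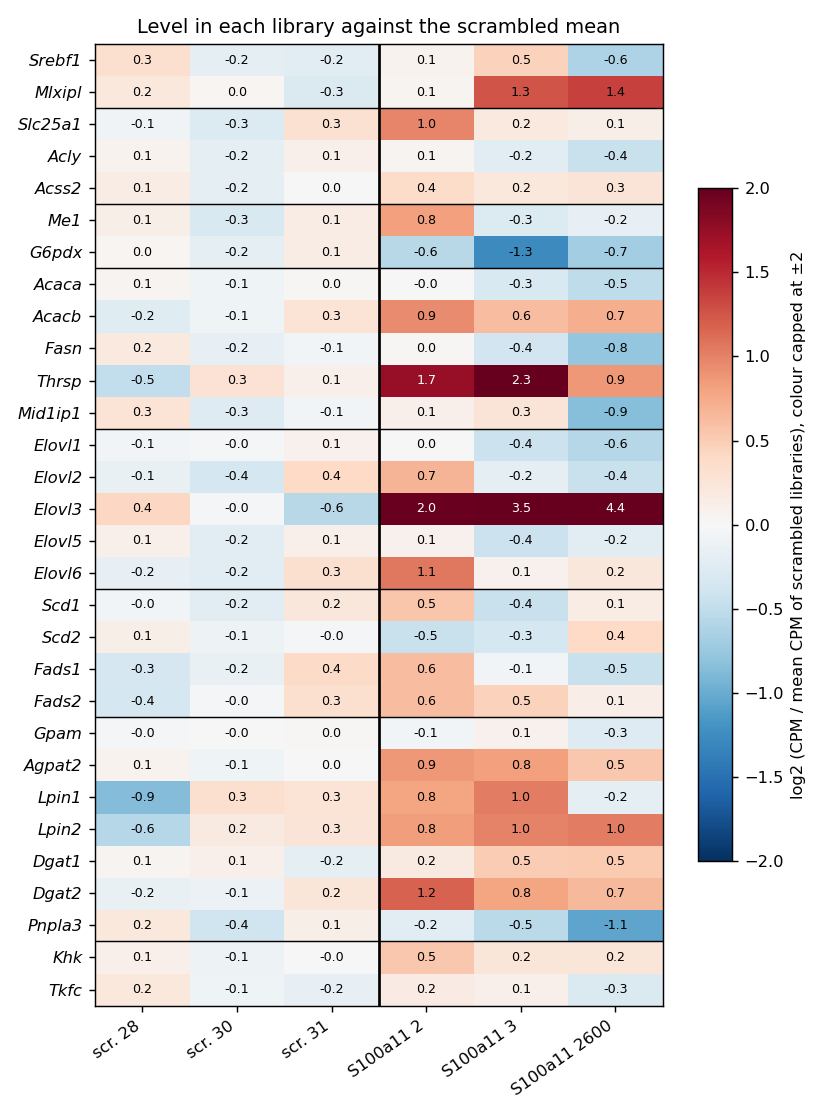
Level of each member (rows, grouped by role) in each library (columns, scrambled on the left), as the log2 ratio of its CPM to the mean CPM of the scrambled libraries. Elovl3 and Thrsp are high in all 3 S100a11 shRNA libraries, while Slc25a1, Me1 and Elovl6 are high in library 2 and Mlxipl in libraries 3 and 2600.

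None of the 4 desaturases passed. Scd1, which makes oleate and palmitoleate from saturated acids, was the most abundant member, with 1.90% to 3.93% of all counts in a library. It stood at 42209, 21206 and 31873 CPM in libraries 2, 3 and 2600 and at 27894, 25053 and 33637 CPM in libraries 28, 30 and 31. The S100a11 shRNA libraries held both the highest and the lowest level (log2 change 0.14 ± 0.50 SE, edgeR adjusted p = 0.89). Scd2, its neighbour on chromosome 19 and the isoform of many other tissues, stood at 121, 130 and 219 CPM against 179, 155 and 162 CPM, likewise with no order between the groups (log2 change -0.08 ± 0.22 SE, edgeR adjusted p = 0.84). Fads1, the delta-5 desaturase of polyunsaturated acids, stood at 753, 476 and 361 CPM against 391, 444 and 645 CPM (log2 change 0.10 ± 0.29 SE, edgeR adjusted p = 0.85). Fads2, the delta-6 desaturase, stood at 1044, 939 and 746 CPM against 533, 660 and 851 CPM (log2 change 0.42 ± 0.22 SE, edgeR adjusted p = 0.25). Both showed library 2 as the highest of all 6 libraries.

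The enzymes of fructose use did not pass either. Khk, ketohexokinase, which phosphorylates fructose on entry, stood at 266, 216 and 217 CPM in libraries 2, 3 and 2600 and at 197, 170 and 182 CPM in libraries 28, 30 and 31. Its groups did not overlap (log2 change 0.35 ± 0.14 SE, edgeR adjusted p = 0.14), and a gene count does not separate the liver isoform from the ubiquitous one. The ratio of Khk to Fasn counts was 0.203, 0.218 and 0.285 against 0.133, 0.147 and 0.146, 1.64-fold higher without overlap (exact permutation p = 0.1, adjusted p = 0.24). Tkfc, the triokinase that phosphorylates the glyceraldehyde from fructose, stood at 357, 343 and 262 CPM against 370, 302 and 285 CPM (log2 change 0.01 ± 0.18 SE, edgeR adjusted p = 0.98). Tkfc overlaps Ddb1 on the opposite strand, which held 60.5% as many counts.

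**Figure D4:**
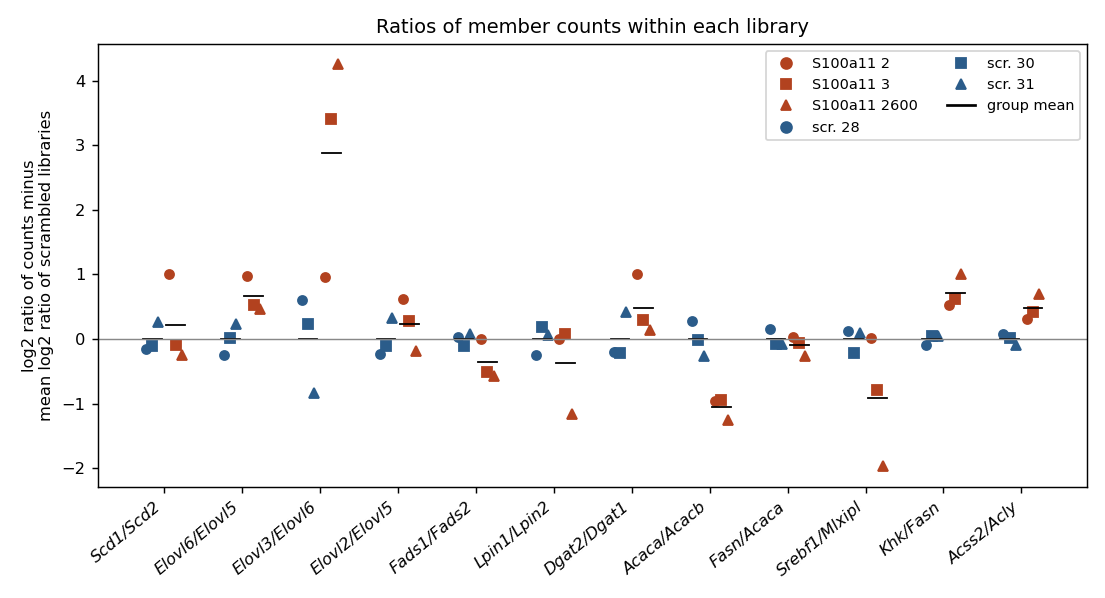
The log2 ratio of 2 members' counts within each library, less the mean log2 ratio of the scrambled libraries (y axis), for 12 pairs (x axis), with points for the 6 libraries and lines for the group means. In 5 pairs the groups do not overlap: Elovl6/Elovl5, Elovl3/Elovl6, Khk/Fasn and Acss2/Acly are higher, and Acaca/Acacb is lower.

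Over the 12 ratios, 4 were higher and 1 lower without overlap in the S100a11 shRNA libraries, all at the smallest permutation p the design allows and none below 0.24 after adjustment. A share over ratios of other genes is not given here, and 34.7% of single genes did not overlap. Elovl3, Acacb, Khk and Acss2, each in 1 of these pairs, did not overlap singly either. The ratio of Elovl3 to Elovl6 moved most, from 0.213, 0.164 and 0.0779 in libraries 28, 30 and 31 to 0.272, 1.48 and 2.66 in libraries 2, 3 and 2600. The ratios of Scd1 to Scd2, Elovl2 to Elovl5, Fads1 to Fads2, Lpin1 to Lpin2 and Dgat2 to Dgat1 overlapped between groups, with log2 differences of 0.22, 0.24, -0.36, -0.36 and 0.48.

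Levels can be compared between members only per length. In the scrambled libraries Scd1 led at 5968 ± 904 CPM per kilobase, followed by Fads2 at 452 ± 106 and Elovl5 at 276 ± 34.9. G6pdx at 3.92 ± 0.47 and Pnpla3 at 1.27 ± 0.27 CPM per kilobase closed the order. Mlxipl, Fads1, Tkfc and Fasn, at 153, 143, 142 and 131 CPM per kilobase, lay within one another's spread, as did Srebf1, Elovl2, Dgat2 and Thrsp at 95.6, 94.2, 90.4 and 83.2. In the S100a11 shRNA libraries Thrsp reached 276 ± 123 and Dgat2 168 ± 33.2 CPM per kilobase.

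**Figure D5:**
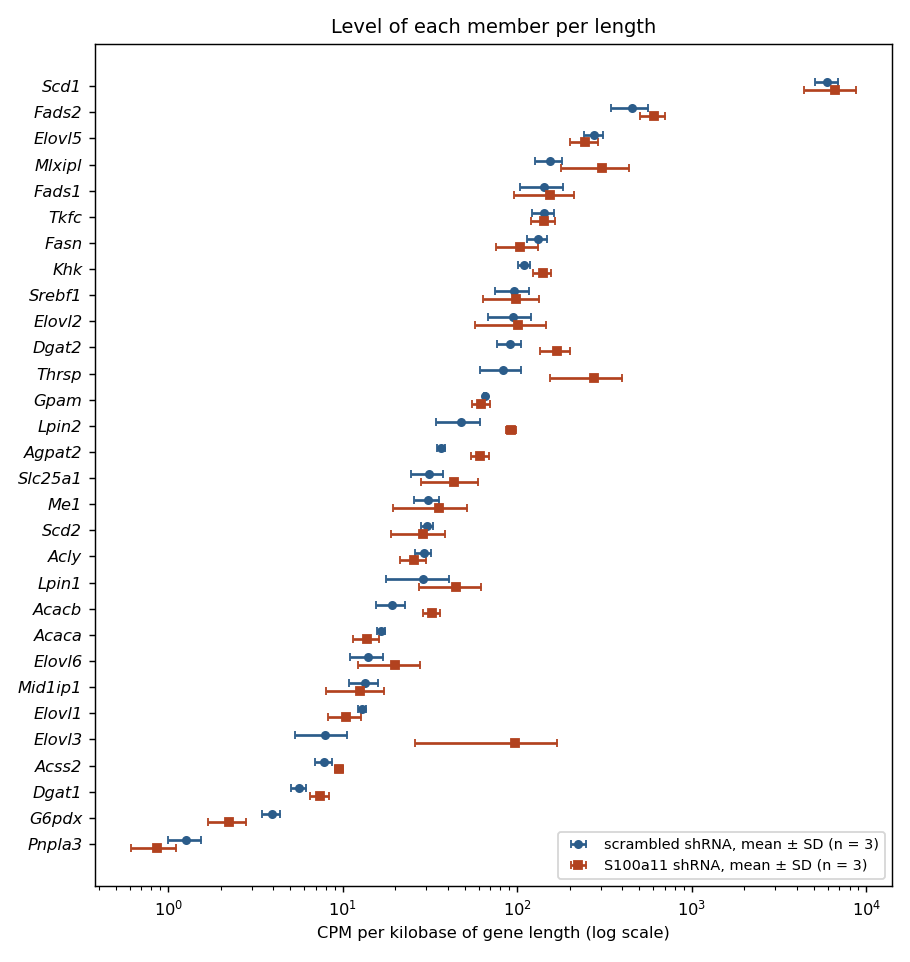
Level of each member per kilobase of gene length (x axis, log scale, TMM-scaled CPM per kilobase) as mean and SD of 3 libraries per group, ordered by the scrambled mean. Scd1 stands alone at the top, and Elovl3 shows the widest distance between groups.

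Beyond the members, 81 further genes of the same steps were measured, of which 80 were tested (Elovl4 was at or below 0.0808 CPM). Of these 8 rose and 4 fell, which is 10% and 5%, against 5.82% and 8.28% of all genes. Their median log2 change was 0.16. In triglyceride assembly 3 of 15 genes were higher (20%) and 1 lower (6.67%). Acsl1, which activates long fatty acids to acyl-CoA for both storage and oxidation, stood at 2171, 2001 and 2250 CPM in libraries 2, 3 and 2600 and at 474, 542 and 622 CPM in libraries 28, 30 and 31, with no overlap (3.92-fold, log2 change 1.97 ± 0.20 SE, edgeR adjusted p = 0.0028). Gpat4, the acyltransferase of the endoplasmic reticulum that shares the first step with Gpam, stood at 272, 238 and 312 CPM against 92.5, 93.6 and 115 CPM (2.72-fold, log2 change 1.44 ± 0.16 SE, edgeR adjusted p = 0.0032). Both passed without any one library and with library totals alone, and the table lists Gpat4 under an older symbol, Agpat6. Mogat1 rose and Mogat2 fell, but Mogat2 lay at or below 1.03 CPM in every library.

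In fructose and polyol use 2 of 12 genes rose (16.7%, against 5.82% of all genes) and 0 fell. Glyctk, a glycerate kinase, rose 1.75-fold (485 ± 75.1 against 276 ± 12.3 CPM, edgeR adjusted p = 0.014), with adjusted p of 0.071 and 0.056 without scrambled libraries 30 and 31. Sord, which makes fructose from sorbitol, was 1.65-fold higher (998 ± 65.5 against 606 ± 114 CPM, edgeR adjusted p = 0.039), a call lost with library totals alone and without any one library except 2 (0.069 to 0.15).

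Of 6 genes of acetyl-CoA supply, Aco1 and Mpc2 rose and Acss1 fell. These are 33.3% and 16.7%, against 5.82% and 8.28% of all genes. Aco1, the cytosolic aconitase, was 1.64-fold higher (285 ± 12.4 against 173 ± 22.9 CPM, edgeR adjusted p = 0.016), with adjusted p of 0.054 and 0.081 without libraries 3 and 30 and 0.10 with library totals alone. Acss1, a mitochondrial acetyl-CoA synthetase, was 2.59-fold lower (1.53 ± 0.33 against 3.99 ± 0.52 CPM, edgeR adjusted p = 0.0093). Of 16 regulators 1 rose, the site-1 protease Mbtps1 that releases SREBPs (log2 change 0.45 ± 0.13 SE, edgeR adjusted p = 0.046), and it passed in 3 of 9 other ways of processing and in 1 of 6 fits without a library. Over those 9 ways its log2 change ran from 0.088 to 0.46. The 1 rise is 6.25% of the regulators, against 5.82% of all genes. Of the 16 regulators 15 had a positive log2 change under TMM, 8 had an unadjusted edgeR p under 0.05 and 6 passed by DESeq2. Of all 19352 tested genes 53.8% had a positive change and 5750 an unadjusted edgeR p under 0.05. By DESeq2 1621 of all genes rose and 2132 fell. Of the 8 genes of NADPH supply 0 passed by edgeR and 0 by DESeq2 (2 at an unadjusted edgeR p under 0.05, Pgd and Pgls). The 9 others listed under fatty acid synthesis were Mlycd, Oxsm, Mcat, Mecr, Acsf3, Prkaa1, Prkaa2, Prkab1 and Prkag1. They do not include the carboxylases or the synthase that make palmitate. Of these 9, 0 passed by either (1 unadjusted, Acsf3).

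Elongation and desaturation each gave 1 fall and 0 rises among 7 tested genes (14.3% lower, against 8.28% of all genes). Elovl7 was 5.07-fold lower (1.14 ± 1.03 against 5.90 ± 1.11 CPM, edgeR adjusted p = 0.021). It stood at 2.31, 0.368 and 0.75 CPM in libraries 2, 3 and 2600 and at 6.44, 4.62 and 6.65 CPM in the scrambled libraries. That call was lost without any one library except 2 (0.052 to 0.062). Fads3, a desaturase relative of Fads1 and Fads2, was 2.18-fold lower (5.39 ± 0.30 against 11.7 ± 1.53 CPM, edgeR adjusted p = 0.0060) and passed without any one library. Acss1, Elovl7 and Fads3 all lay at or below 13.5 CPM and fell in the same direction as the macrophage and cholangiocyte markers given above, whose part was not tested.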

How the data were processed

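Libraries were prepared from liver total RNA with a stranded kit that removes ribosomal RNA, per the labels' protocols. The authors deposited raw read counts for each Ensembl gene beside its length in bases, and build mm10 is named in the submitters' processing notes. Which aligner and counter were used, and whether strand was considered in counting, is not given in the sources used here. Members were matched by symbol or, for 1, by Ensembl identifier through GENCODE M21. Counts were filtered with filterByExpr (minimum count 10, minimum total 15, 19352 genes kept), scaled by TMM and compared with glmQLFit and glmQLFTest in edgeR 4.0.16 (R 4.3.3), with a Benjamini-Hochberg threshold of 0.05. Standard errors were derived from the F statistic. Alternatives used limma 3.58.1 voom and DESeq2 1.42.0. The procedure was tested on simulated data. Ratios of 12 pairs were compared by exact two-sided permutation. Every member is named, and of the 81 other genes the first 2 by p among those past the threshold in each role. Others named (Mpc2, Mogat1, Mogat2, Elovl4, Pgd, Pgls and Acsf3) were chosen after their values were seen. The 9 others of fatty acid synthesis are named in full. The members and lists were chosen with earlier results of these data known. Promoter sequences are RefSeq's, in GRCm38.p6, limited to the bases before the start. Gene lists of other cell types were hepatocyte, adipocyte, macrophage, stellate cell, cholangiocyte, endothelial cell (1 of 6 higher, 1 lower) and lymphocyte (1 of 6 lower).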

Additional observations from a re-analysis of the deposited data

How the results depend on the processing

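Counts of members that rose and fell stayed within 1.5 times of 6 and 1 under the other scaling, filter and tool choices except library totals alone (2 and 4). Further genes of the pathway that rose (8) numbered 4 with library totals alone, 14 with DESeq2 and 17 at an adjusted p of 0.1, and those that fell (4) numbered 8 with library totals alone. Leaving out 1 library at a time gave 2 to 8 members higher and 0 to 3 lower, and 2 to 12 and 3 to 8 further genes. Of the members 2 rose without scrambled library 30, 3 without library 28 and 8 without library 2. In those fits 221 of 19784, 508 of 19883 and 1806 of 19779 tested genes rose. Over the 6 fits 221 to 1806 of all tested genes rose and 503 to 2370 fell, so the counts of all genes moved too. S100a11 passed with library totals alone (log2 change -1.90), limma voom (-1.89) and an adjusted p of 0.1 (-1.57), and ranged from -2.75 to -1.22 without 1 library. Of those 6 fits it passed only in that without library 2 (-2.75, adjusted p = 0.00044). The legacy quasi-likelihood of edgeR was added after seeing the data.

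Members near 0 changed sign. With library totals alone the log2 changes were -0.31 (Srebf1), -0.074 (Acss2), -0.11 (Me1), -0.23 (Elovl2), -0.21 (Scd1), -0.23 (Fads1), -0.0025 (Khk) and -0.34 (Tkfc). With upper-quartile factors Srebf1 was -0.061 and Tkfc -0.089, and with limma voom -0.020 and -0.0031. Tkfc was also -0.00077 with RLE factors and with DESeq2, -0.011 with TMM without the 20 most abundant genes and -0.022 with at least 1 CPM in 3 libraries. Without 1 library the ranges were -0.24 to 0.26 (Srebf1), -0.25 to 0.42 (Me1), -0.29 to 0.17 (Mid1ip1), -0.33 to 0.35 (Elovl2), -0.15 to 0.36 (Scd1), -0.42 to 0.043 (Scd2), -0.27 to 0.35 (Fads1), -0.15 to 0.0057 (Gpam) and -0.11 to 0.13 (Tkfc). Where the sign changed, none passed the threshold. For the ratios they were -0.17 to 0.46 (Scd1/Scd2) and -0.58 to 0.037 (Lpin1/Lpin2). The cause was not tested, beyond the fewer samples of each fit. No paired analysis was possible because the groups share no replicate numbers.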

Other observations

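The libraries of the S100a11 shRNA group differed from one another across the members. Library 2 held the highest level of all 6 libraries in 12 of 30 members (40%, against 20.6% of all 19352 tested genes), among them Scd1, Fads1, Fads2, Elovl2, Elovl6, Slc25a1, Me1, Acacb, Agpat2, Dgat2, Khk and Acss2. Library 2600 held the lowest level in 11 members (36.7%, against 21.3% of all), among them Fasn, Acaca, Acly, Srebf1, Mid1ip1 and Pnpla3. Library 2 is the one whose S100a11 level, 16.0 CPM, was as high as that of scrambled library 28, and library 2600 the one with the largest share of Gm26917, at 10.8%. The 30 members together took 4.95%, 2.87% and 3.41% of counts in libraries 2, 3 and 2600 and 3.98%, 3.91% and 4.7% in libraries 28, 30 and 31.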
